A study of Apis mellifera with 12 samples.

Results

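Cuticle tanning and melanization were followed through 6 genes in antennae from workers of the honey bee, Apis mellifera: TyHyd (tyrosine hydroxylase), PPO (prophenoloxidase) and 4 yellow family genes, Y-e3, Y-f, Y-h and Y-y. They were taken by gene name from a table of 12319 genes, and all 6 were among the 11271 genes that had enough counts to be tested. Antennal RNA was sequenced in 12 libraries, 3 each of defenders, foragers (bees that gather nectar and pollen), nurses (bees that feed brood in the nest) and newly emerged workers. The series title names the division of labour among workers as its question. Age, colony, genetic stock, bees pooled for each library and the defensive task itself were not given in the sources used here, so differences between tasks cannot be told apart from differences in age. The labels do not say that libraries came from separate bees or colonies, so a p-value here covers only the spread seen between libraries.

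Insect cuticle is secreted soft and pale and is then hardened and darkened, which is called tanning. Tyrosine hydroxylase converts tyrosine into dopa, from which dopamine is made, and both are precursors of the quinones that cross-link cuticle proteins and of melanin. Dopamine is also a neurotransmitter, so tyrosine hydroxylase serves epidermis and neurons alike. Prophenoloxidase is the inactive form of an enzyme that oxidises phenols to quinones once proteases have cut it, and is known for the melanization of wounds and parasites, with hemocytes as a main source. Yellow proteins are secreted. In Drosophila, yellow is needed for black pigment and yellow-f speeds the conversion of dopachrome, a melanin precursor. The royal jelly proteins of bees derive from the same family.

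Library totals ran from 66708813 to 119703929 counts. Levels below are CPM, counts scaled for library size with TMM factors, and differences are log2 fold changes from edgeR with Benjamini-Hochberg adjusted p over all tested genes. CPM does not correct for transcript length, so levels are compared between groups and not between genes. The antennal markers Obp1, Obp2, Or2 and Or11 were all present. They summed to 30906 to 34405 CPM in defenders, 32308 to 44614 in foragers, 33547 to 35656 in nurses and 16904 to 20437 in newly emerged workers. Obp1 and Obp2 made up most of that sum. Or2 had another pattern, with means of 366 CPM in defenders, 198 in foragers, 176 in nurses and 324 in newly emerged workers. It was called lower in nurses and in foragers than in newly emerged workers, where the other 3 markers were called higher. With upper-quartile in place of TMM factors the median log2 fold change over tested genes shifted by 0.124 for nurses and 0.146 for foragers against newly emerged workers, and by -0.101 for defenders against foragers. The share of called genes that were higher was then 63.9% against 47.7% with TMM for nurses against newly emerged workers, 65.2% against 49.1% for foragers against newly emerged workers, and 41.1% against 59.9% for defenders against nurses.

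TyHyd, the entry enzyme of the pathway, had its highest level in newly emerged workers and its lowest in nurses, with foragers and defenders in between. Its level was 587, 452 and 301 CPM in the 3 defender libraries and 1105, 760 and 512 CPM in the 3 forager libraries. It was 347, 278 and 267 CPM in nurses, against 2821, 4058 and 2940 CPM in newly emerged workers. The newly emerged libraries lay above all 9 others without overlap, and every forager library lay above every nurse library. TyHyd was 11.0-fold lower in nurses (log2 fold change -3.46, SE 0.31, adjusted p = 6.88e-06), 4.13-fold lower in foragers (-2.05, SE 0.29, adjusted p = 0.000146) and 7.32-fold lower in defenders (-2.87, SE 0.30, adjusted p = 1.49e-05) than in newly emerged workers. In nurses against newly emerged workers the size of this change exceeded that of 99.2% of tested genes.

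Among the working bees (defenders, foragers and nurses) the TyHyd difference that passed was the one between foragers and nurses. TyHyd averaged 792 ± 298 CPM in foragers and 297 ± 43.7 CPM in nurses (SD, n = 3 each), a 2.67-fold rise (log2 fold change 1.41, SE 0.28, adjusted p = 0.0172). That call ended without forager library 1 (adjusted p = 0.0593), without nurse library 2 (adjusted p = 0.0855) or when only these 6 libraries were fitted (adjusted p = 0.0559), while the log2 fold change stayed between 1.10 and 1.65. Defenders, at 447 ± 143 CPM, did not pass against nurses (log2 fold change 0.59, 95% interval -0.02 to 1.20, adjusted p = 0.196), and the libraries overlapped. Defenders were below foragers by a log2 fold change of -0.83 (95% interval -1.44 to -0.21), which did not pass (adjusted p = 0.111). The numbers that follow the group names paired defenders and foragers in the data. With that number as a block over 12 libraries the same difference passed (log2 fold change -0.82, adjusted p = 0.0473). The pairing was read from these same libraries, and the block includes nurses, whose numbers did not pair them with the others. Defender libraries 1, 2 and 3 each lay below the forager library of their number. TyHyd was also more variable between libraries than most genes: its coefficient of variation was 32.0% in defenders and 37.6% in foragers, where the median tested gene had 7.16% and 12.7%.

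**Figure D1:**
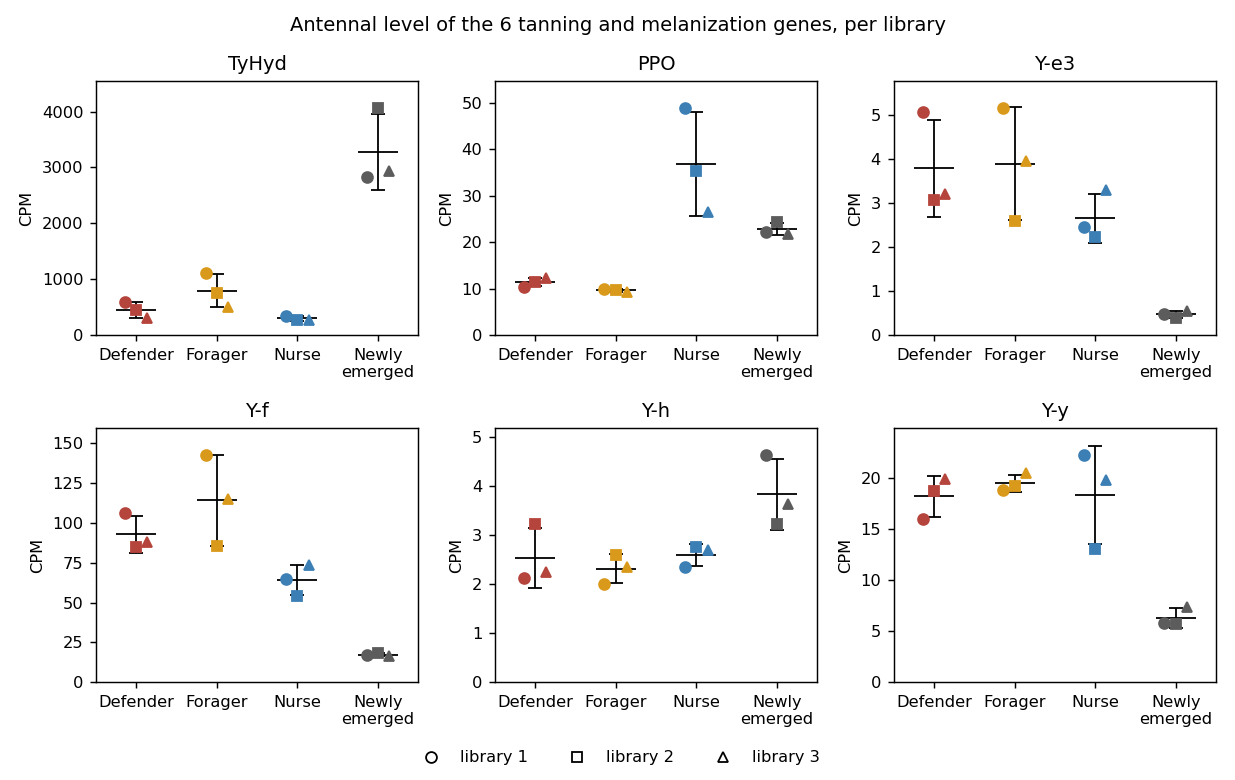
Level of each gene in every library (CPM, linear axes from 0), with defenders, foragers, nurses and newly emerged workers from left to right; points are libraries, the long bar is the group mean and the whiskers are ± 1 SD (n = 3). TyHyd is highest in newly emerged workers (2821 to 4058 CPM), PPO in nurses (26.4 to 48.8 CPM), and Y-e3, Y-f and Y-y are lowest in newly emerged workers.

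PPO followed another course: it was highest in nurses and lowest in foragers and defenders. PPO, the melanization proenzyme, was at 10.4, 11.5 and 12.3 CPM in defenders and at 9.99, 9.65 and 9.25 CPM in foragers. It was at 48.8, 35.2 and 26.4 CPM in nurses and at 22.2, 24.3 and 21.8 CPM in newly emerged workers. Every nurse library lay above every newly emerged library, and both groups lay above all 6 libraries of defenders and foragers. The spread was narrow in foragers (coefficient of variation 3.88%) and wide in nurses (30.6%), where library 1 was highest.

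PPO was 3.82-fold lower in foragers than in nurses (log2 fold change -1.93, SE 0.18, adjusted p = 0.000199) and 3.23-fold lower in defenders than in nurses (-1.69, SE 0.18, adjusted p = 0.000562). By p-value it ranked 8 of 11271 genes in foragers against nurses and 11 in defenders against nurses, and no single library removed from either comparison ended its call. Against newly emerged workers it was 2.37-fold lower in foragers (-1.24, SE 0.17, adjusted p = 0.000134) and 2.00-fold lower in defenders (-1.0, SE 0.17, adjusted p = 0.000746). In nurses it was 1.62-fold higher than in newly emerged workers (0.69, SE 0.17, adjusted p = 0.00744), and without nurse library 1 the log2 fold change was 0.44 (adjusted p = 0.0201). Defenders and foragers did not differ by the test (log2 fold change 0.24, 95% interval -0.13 to 0.62, adjusted p = 0.413), although the 3 defender libraries lay above the 3 forager libraries. In whole antennae, fewer cells that make a transcript and less of it per cell cannot be told apart. No gene matched any of the 6 hemocyte marker symbols looked for (Hml, Hmct, NimC1, Eater, Crq, Lz), so the share of blood cells could not be followed beside PPO.

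Markers of 2 other tissues were also uneven among the nurse libraries. Of 6 fat body symbols 5 were found and 4 tested, with Hex70c near 0; 3 of the 4 fell in foragers and 3 in defenders against nurses. They summed to 18.3 to 42.9 CPM in defenders, 12.2 to 18.9 in foragers, 42.7 to 229 in nurses and 35.2 to 49.5 in newly emerged workers. Of 6 hypopharyngeal gland markers, 4 fell and 1 rose in foragers and 3 fell and 1 rose in defenders against nurses. Over all tested genes, 2.10% fell in foragers and 3.11% in defenders against nurses, and 1.91% and 4.63% rose. The gland markers summed to 257 to 278 CPM in defenders, 416 to 422 in foragers, 373 to 2417 in nurses and 24.7 to 28.2 in newly emerged workers. Hbg3, the marker that rose, made up most of the sum in defenders and foragers. Its mean was 208 CPM in defenders, 390 in foragers, 111 in nurses and 21.8 in newly emerged workers. Nurse library 1, which had the highest PPO, had the highest gland sum (2417 CPM) and the lowest fat body sum among nurses (42.7 CPM). Their part in the PPO result was not tested.

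Of the yellow genes, Y-f rose with the smallest adjusted p in each working group (defenders, foragers and nurses) against newly emerged workers. Its level was 106, 84.6 and 87.8 CPM in defenders and 142, 85.3 and 115 CPM in foragers. It was 65.0, 54.2 and 73.3 CPM in nurses, against 17.0, 18.3 and 16.5 CPM in newly emerged workers. All 9 libraries of working bees lay above the 3 newly emerged ones, and all defender and forager libraries lay above all nurse libraries. Against newly emerged workers Y-f was 6.61-fold higher in foragers (log2 fold change 2.72, SE 0.18, adjusted p = 3.31e-07), 5.37-fold higher in defenders (2.43, SE 0.18, adjusted p = 8.68e-07) and 3.71-fold higher in nurses (1.89, SE 0.17, adjusted p = 9.48e-06).

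Y-f was also 1.78-fold higher in foragers than in nurses (log2 fold change 0.83, SE 0.17, adjusted p = 0.0181). Without forager library 1, nurse library 1 or nurse library 2, or with only these 6 libraries in the fit, this did not pass (adjusted p = 0.0620, 0.0514, 0.0905 and 0.120). Y-f in defenders against nurses missed the threshold (log2 fold change 0.53, 95% interval 0.17 to 0.90, adjusted p = 0.0690), but passed with DESeq2 (adjusted p = 0.0282). It also passed in edgeR with the library number as a block (adjusted p = 0.0358). That block treats nurse libraries as paired with the others by number, which the data did not show. Defenders against foragers did not pass (-0.30, 95% interval -0.67 to 0.07, adjusted p = 0.302). The order of the Y-f means was foragers, defenders, nurses and newly emerged workers. Between neighbours in that order, the step from nurses to newly emerged workers passed; the step between defenders and nurses depended on the fit.

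Of the 6 genes Y-e3 had the largest fold rise over newly emerged workers in each working group, and few counts there. The 3 newly emerged libraries held 50, 26 and 51 counts. In CPM, Y-e3 was at 5.06, 3.07 and 3.21 in defenders, 5.14, 2.58 and 3.94 in foragers and 2.46, 2.22 and 3.28 in nurses, against 0.484, 0.385 and 0.546 in newly emerged workers. All 9 libraries of working bees lay above the newly emerged ones, whereas the 3 working groups overlapped. Y-e3 was 8.16-fold higher in foragers (log2 fold change 3.03, SE 0.31, adjusted p = 1.07e-05), 7.91-fold higher in defenders (2.98, SE 0.31, adjusted p = 1.27e-05) and 5.57-fold higher in nurses (2.48, SE 0.30, adjusted p = 8.03e-05) than in newly emerged workers. Between working groups none of the differences passed: the log2 fold change was 0.55 for foragers against nurses (95% interval -0.04 to 1.14), 0.51 for defenders against nurses (-0.08 to 1.10) and -0.04 for defenders against foragers (-0.63 to 0.54).

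Y-y, the bee gene that bears the name of Drosophila yellow, rose in all working groups, whose means were close to each other. It was at 16.0, 18.7 and 19.9 CPM in defenders, 18.8, 19.2 and 20.4 CPM in foragers and 22.2, 13.0 and 19.8 CPM in nurses, against 5.77, 5.65 and 7.39 CPM in newly emerged workers. The working groups overlapped with each other, and all their libraries lay above the newly emerged ones. Y-y was 3.10-fold higher in foragers (log2 fold change 1.63, SE 0.18, adjusted p = 2.22e-05), 2.90-fold higher in defenders (1.54, SE 0.18, adjusted p = 3.94e-05) and 2.92-fold higher in nurses (1.55, SE 0.18, adjusted p = 5.60e-05). Between working groups the log2 fold changes were 0.09, -0.01 and -0.10, with 95% intervals that together ran from -0.48 to 0.47.

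In the RefSeq gene list for Amel_HAv3.1, Y-y overlaps a long non-coding RNA gene, LOC100578965. None of the other 5 genes overlaps another gene there. Whether counting used the strand was not given in the sources used here, so reads of Y-y and LOC100578965 may not be separable. LOC100578965 was at 51.5 ± 4.41 CPM in defenders, 50.1 ± 20.7 CPM in foragers and 43.2 ± 4.31 CPM in nurses, against 3.62 ± 0.251 CPM in newly emerged workers (SD, n = 3 each). Its log2 fold changes against newly emerged workers, 3.57 in nurses, 3.79 in foragers and 3.83 in defenders, had the same direction as those of Y-y.

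Y-h ran the opposite way to the other 3 yellow genes, by a small margin. It was at 2.13, 3.24 and 2.25 CPM in defenders, 2.00, 2.59 and 2.35 CPM in foragers and 2.35, 2.76 and 2.70 CPM in nurses, against 4.63, 3.24 and 3.63 CPM in newly emerged workers. The newly emerged libraries lay above all others, but defender library 2 and newly emerged library 2 both round to 3.24 CPM. Y-h was 1.66-fold lower in foragers (log2 fold change -0.73, SE 0.20, adjusted p = 0.00922), 1.51-fold lower in defenders (-0.59, SE 0.20, adjusted p = 0.0333) and 1.48-fold lower in nurses (-0.56, SE 0.20, adjusted p = 0.0386) than in newly emerged workers.

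These Y-h calls depended on single libraries. Without newly emerged library 1 none of the 3 passed (adjusted p = 0.0523 in foragers, 0.146 in defenders and 0.173 in nurses). The nurse call also ended without newly emerged library 3 or any single nurse library (adjusted p = 0.0563 to 0.111), and the defender call without newly emerged library 3 or defender library 1 or 3 (adjusted p = 0.0504 to 0.117). With upper-quartile factors Y-h did not pass in nurses (log2 fold change -0.44, adjusted p = 0.102) or in defenders (-0.55, adjusted p = 0.0561). Between working groups the Y-h log2 fold changes were -0.17, -0.03 and 0.14, and none passed.

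**Figure D2:**
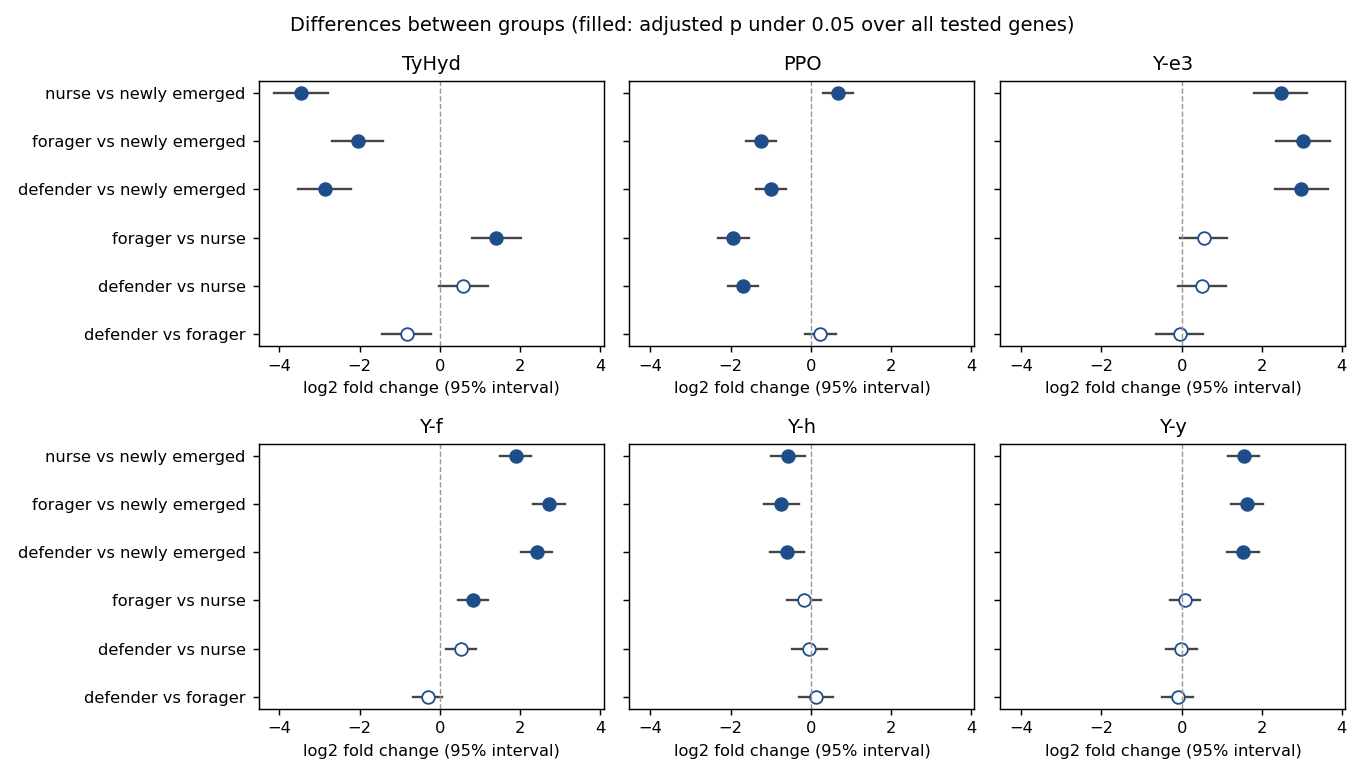
Log2 fold change of each gene in the 6 comparisons, with 95% intervals from the edgeR fit; filled circles have an adjusted p under 0.05. All 6 genes are filled in the 3 comparisons with newly emerged workers, and PPO is the gene that stays filled in both foragers and defenders against nurses (-1.93 and -1.69).

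All 6 genes differed among the 4 groups (adjusted p from 1.89e-06 to 0.0273), as did 48.5% of tested genes, and all 6 differed from newly emerged workers in each working group. In nurses 4 rose and 2 fell; 39.6% of all tested genes passed, 18.9% higher and 20.7% lower. In foragers 3 rose and 3 fell, where 47.9% of all genes passed, 23.6% higher and 24.4% lower. In defenders 3 rose and 3 fell, where 34.4% passed, 17.7% higher and 16.7% lower. For all 6 genes the libraries of the 2 groups did not overlap in these comparisons; over all tested genes this held for 52.3%, 56.3% and 54.8% in nurses, foragers and defenders. The median absolute log2 fold change of the 6 genes was 1.72 in nurses, 1.84 in foragers and 1.98 in defenders, beside 0.32, 0.37 and 0.28 over all genes.

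Differences between working groups were fewer. In foragers against nurses TyHyd and Y-f rose and PPO fell, where 4.01% of all genes passed, 1.91% higher and 2.10% lower. The libraries of these 3 genes did not overlap, which held for 18.1% of all genes. The number that rose was 0 without forager library 1 or nurse library 2 and 1 without nurse library 1, and the 452 calls over all genes became 259, 288 and 176 without forager library 1, forager library 2 or nurse library 2. In defenders against nurses PPO fell and none rose, where 7.74% of all genes passed, 3.11% lower and 4.63% higher. The libraries did not overlap for 2 of the 6 (PPO and Y-f), and for 38.0% of all genes. Leaving out 1 library gave 99 to 1428 calls over all genes in place of 872, lowest without defender library 3 and highest without nurse library 1. It gave 289 and 121 without defender libraries 1 and 2, and 156 and 309 without nurse libraries 2 and 3. In defenders against foragers 0.00% of all genes and none of the 6 passed in edgeR with the 4 groups fitted and no block; 1 of the 6 (TyHyd) and 2705 of all genes had an unadjusted p under 0.05, and DESeq2 called TyHyd and 1306 genes in all. Other edgeR fits did call genes: 667 with the library number as a block and 1246 with that block over the 9 paired libraries, TyHyd among them in both, and 876 with only these 2 groups in the fit. The libraries did not overlap for 1 of the 6 (PPO), and for 32.0% of all genes.

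**Figure D3:**
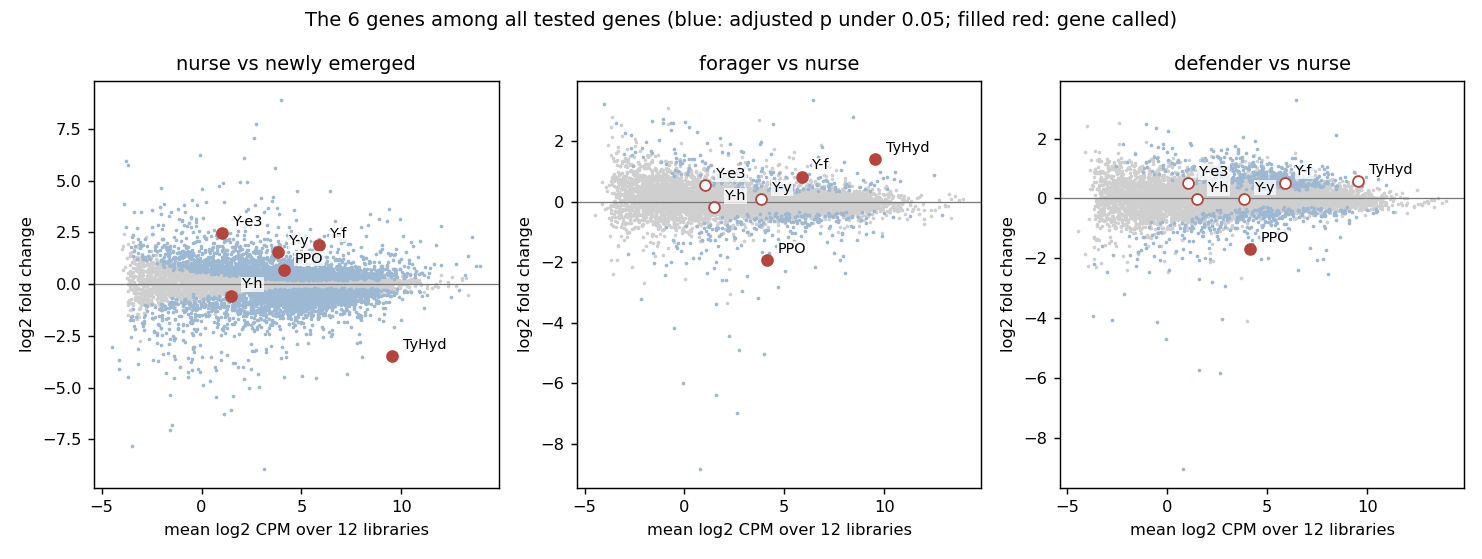
Log2 fold change against mean log2 CPM for all 11271 tested genes in nurses against newly emerged workers, foragers against nurses and defenders against nurses; blue points are called genes, red circles are the 6 genes, filled where called. TyHyd stands at the lower edge in nurses against newly emerged workers (-3.46) and PPO lies below the bulk of genes in the other panels (-1.93 and -1.69).

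The 6 genes fell into different patterns across libraries. Correlations here are of log2 CPM, are given as descriptions, and rest on libraries that share their group's level. Y-e3 and Y-f were alike over all 12 libraries (Pearson r = 0.98) and over the 9 libraries of working bees (r = 0.89). TyHyd and Y-f went in opposite directions where newly emerged workers were included (r = -0.74), but together among the working bees (r = 0.79). PPO and Y-f were opposed among the working bees (r = -0.82). Forager library 1 and defender library 1 were each the highest of their group for TyHyd, Y-e3 and Y-f.

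**Figure D4:**
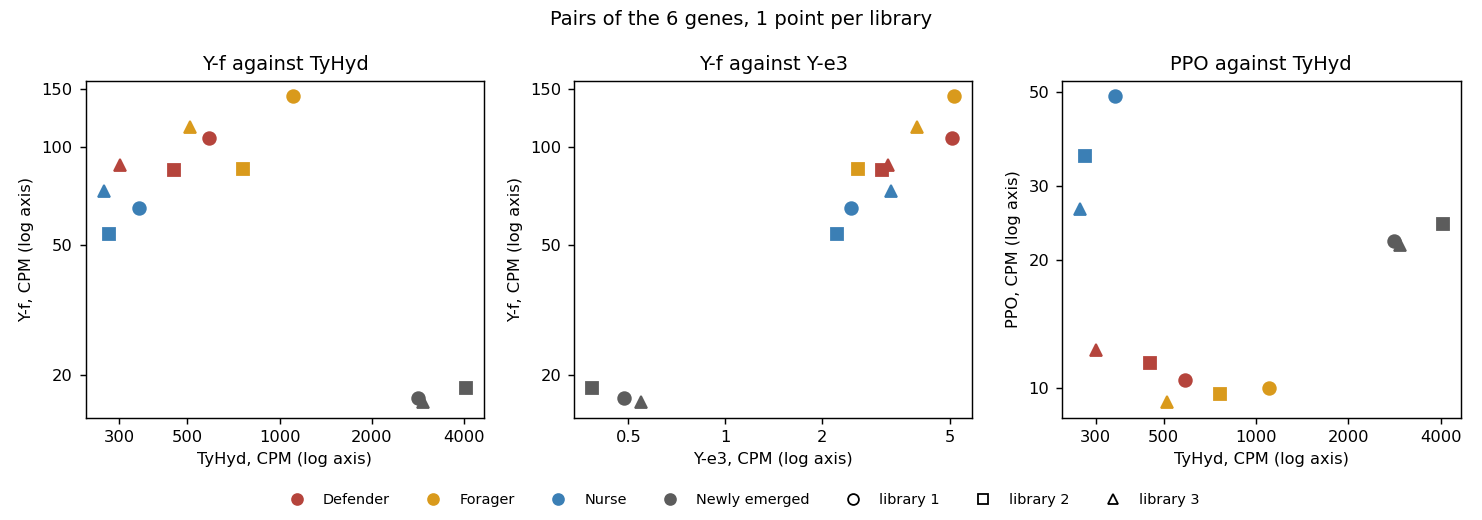
Levels of 3 pairs of genes, 1 point per library (CPM, log axes on both sides), with colours for groups and shapes for library numbers. In the TyHyd and Y-f panel the working bees form a rising band and the newly emerged libraries stand apart at high TyHyd and low Y-f; in the PPO panel the 3 nurse libraries lie above all defender and forager libraries on the PPO axis (26.4 to 48.8 CPM).

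The genes whose pattern over the 12 libraries was most like that of each of the 6, among the 8223 tested genes with a mean of at least 5 CPM, were mostly known only by an identifier. For TyHyd they were LOC552320, CytC (cytochrome c) and LOC409055, with r of 0.97, 0.97 and 0.96. CytC had the same order of group means as TyHyd, at 174 ± 17.8 CPM in defenders, 213 ± 27.6 in foragers, 158 ± 14.0 in nurses and 303 ± 21.5 in newly emerged workers. For PPO they were LOC410363, LOC551553 and the apidermin gene Apd-1, which encodes a structural cuticle protein, with r of 0.91, 0.90 and 0.90. Apd-1 was at 0.0815 ± 0.0680 CPM in defenders and 0.0840 ± 0.0765 in foragers, against 38.9 ± 16.8 in nurses and 40.2 ± 19.3 in newly emerged workers. For Y-e3 they were LOC725960, LOC410013 and Y-f (0.99, 0.99 and 0.98), and for Y-f LOC102654261, LOC724867 and LOC410013 (each 0.99). For Y-y they were LOC410167, LOC725462 and the odorant binding protein gene Obp21 (each 0.98), and for Y-h LOC100577515, LOC412013 and LOC409057 (0.87, 0.86 and 0.86).

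Y-e3 and Y-h frame the royal jelly protein genes on their linkage group. In the RefSeq list, 12 genes of the count table lie between them: Mrjp1 to Mrjp9, 2 long non-coding RNA genes and LOC102654393. Mrjp9, the gene next to Y-h, was at 449 ± 91.9 CPM in defenders, 410 ± 85.7 in foragers and 276 ± 19.0 in nurses, against 78.9 ± 2.98 in newly emerged workers, and so rose where Y-h fell. Mrjp3, the gene next to Y-e3, was at 4.93 ± 1.95 CPM in defenders, 2.24 ± 3.16 in foragers, 276 ± 242 in nurses and 2.08 ± 1.03 in newly emerged workers. Its log2 fold change in foragers against nurses was -6.99 (adjusted p = 0.00835), while that of Y-e3 was 0.55 and did not pass. Mrjp8, at 52.6 ± 11.2 CPM in defenders, 54.2 ± 12.7 in foragers, 37.1 ± 13.1 in nurses and 7.0 ± 1.48 in newly emerged workers, had the same order of means as Y-e3. Of the 9 royal jelly genes, 9 rose in nurses, 4 in foragers and 6 in defenders against newly emerged workers. Over all tested genes, 18.9%, 23.6% and 17.7% rose in these comparisons. Against nurses, 5 royal jelly genes fell in foragers, and 1 rose and 3 fell in defenders. Over all tested genes, 2.10% fell in foragers against nurses, and in defenders 4.63% rose and 3.11% fell. Tandem copies may share reads; the treatment of such reads was not given in the sources used here.

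**Figure D5:**
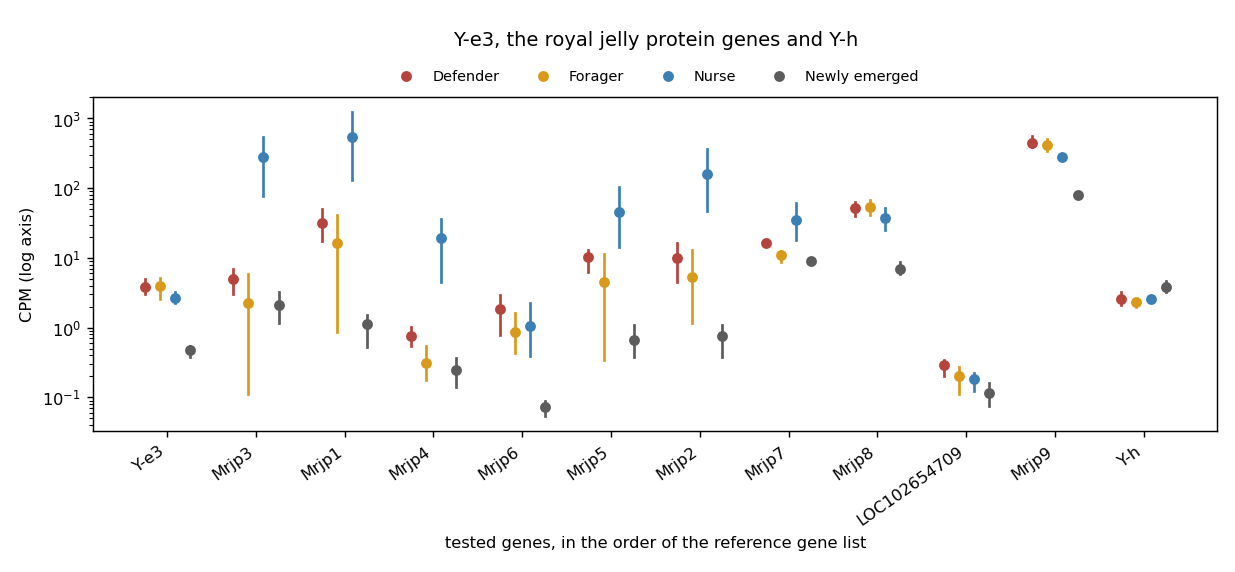
Group mean (point) and range over 3 libraries (line) of the 12 tested genes from Y-e3 to Y-h, in the order of the reference gene list, on a log CPM axis; defenders, foragers, nurses and newly emerged workers stand from left to right within each gene. Nurses are above foragers and defenders for Mrjp2, Mrjp3 and Mrjp4, which passed in both comparisons. Mrjp5 passed in neither. Mrjp1 and Mrjp7 passed for foragers but not for defenders (adjusted p = 0.0589 and 0.0617).

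Other steps of the pathway could be followed only where a gene carries a symbol. Dopa decarboxylase, phenylalanine hydroxylase, laccase 2 and 9 further yellow symbols that were looked for matched no symbol or synonym. Of 6 hormone and receptor symbols that govern moulting and tanning, 4 were found and tested. These were Burs and Pburs (the subunits of bursicon, the tanning hormone), Eth (ecdysis triggering hormone) and Ecr (the ecdysone receptor). None of the 4 rose in any comparison. Eth fell in all working groups, to 0.427 ± 0.166 CPM in defenders (log2 fold change -1.20, adjusted p = 0.00393), 0.302 ± 0.0533 in foragers (-1.72, adjusted p = 0.000368) and 0.547 ± 0.0524 in nurses (-0.87, adjusted p = 0.0217), against 0.998 ± 0.0670 in newly emerged workers. Ecr also fell in defenders against newly emerged workers (-0.28, adjusted p = 0.0386), and Burs, at 4.99 ± 0.530 CPM in defenders and 4.32 ± 0.770 in newly emerged workers, did not pass in any comparison, nor did Pburs.

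Against newly emerged workers, most of the structural cuticle and muscle genes tested fell, as TyHyd did. Of the apidermin genes Apd-1, Apd-2 and Apd-3, 2 fell in nurses and all 3 fell in foragers and in defenders against newly emerged workers. Together they held 43.7 to 79.0 CPM in defenders, 49.0 to 95.3 in foragers and 315 to 419 in nurses, against 3599 to 4573 in newly emerged workers. Of 16 tested CPR cuticle protein genes, 9 fell in each working group against newly emerged workers, 3 rose in nurses and 4 rose in foragers and in defenders. Their summed level was 724 to 1027 CPM in defenders, 807 to 926 in foragers and 790 to 1120 in nurses, against 2957 to 3419 in newly emerged workers. CPR14 alone made up most of that sum in every group, with a mean of 2404 CPM in newly emerged workers. Of 7 tested troponin genes used as muscle markers, 6 fell in defenders, 6 in foragers and 4 in nurses against newly emerged workers. Over all tested genes, 16.7%, 24.4% and 20.7% fell in these comparisons, and 17.7%, 23.6% and 18.9% rose. The troponin sums were 1285 to 1722 CPM in defenders, 1117 to 1451 in foragers and 1325 to 2056 in nurses, against 2639 to 3023 in newly emerged workers. Unlike TyHyd, the apidermin sum was lower in foragers than in nurses, and all 3 apidermin genes fell in that comparison. There 1 CPR gene rose and 3 fell, and 0 muscle markers rose and 2 fell. Of all tested genes, 1.91% rose and 2.10% fell in foragers against nurses. The part of these tissues in the TyHyd result was not tested.

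The deposited splice tables hold 491 events, and none of them lies in any of the 6 genes or in LOC100578965.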

How the data were processed

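The authors deposited a table of raw counts per gene for 12 antennal libraries and, per the file headers, 5 splice tables that give each event's inclusion as a fraction, used here only to look up events. Sequencing was on the DNBSEQ platform, per the series' design text. Aligner, counter, build and annotation were not given in the sources used here, and the labels' protocol fields describe a chromatin assay on human cells and were not used. Groups came from titles, and columns were joined by group initials and number. Counts were filtered with filterByExpr (11271 genes kept, 99.998% of counts), scaled with TMM and fitted with edgeR 4.0.16 in R 4.3.3 (glmQLFit with robust = TRUE, glmQLFTest, two-sided; 12 libraries, 4 group means, 8 residual degrees of freedom). Calls have a BH adjusted p under 0.05. Standard errors are the log2 fold change over the square root of F. Log2 CPM for correlations used a prior count of 2. DESeq2 1.42.0 and other settings were alternatives. Of 12319 names, 12167 matched a RefSeq symbol.

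The 6 genes were named whatever their result, with listed pathway genes, the 3 most alike patterns per gene and neighbouring royal jelly genes; these and the lists were chosen with earlier results of these data known. The gene list used holds no descriptions, so list members were found by symbol or synonym alone; the dopamine transport list was added after values were seen. The fit was also run on simulated counts with the same dispersion (spread beyond counting noise) for every gene and few changed genes. These data differ from that setting, so the run does not measure error rates here. Titles carry a number after the group name and a second one after Rep, which differ for forager 1 and nurse 1 (both Rep2, a number that then occurs more than once in the group); the first was used. These numbers pair defenders, foragers and newly emerged workers: deviations from group means, across genes, correlated at 0.18 to 0.42 for all 9 same-numbered pairs, and at -0.36 to 0.29 for the 9 pairs with nurses, which were not treated as paired. Nurse library 3 correlated with library 1 of defenders, foragers and newly emerged workers at 0.36, 0.29 and 0.23. Nurse library 1 correlated with library 3 of these groups at 0.36, 0.13 and -0.04. For library 2 of nurses and library 2 of these groups the values were 0.16, 0.29 and 0.26. A block in that order was not fitted. The labels do not say what a number stands for.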

Additional observations from a re-analysis of the deposited data

How the results depend on the processing

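Of 486 refits of a log2 fold change of the 6 genes, 462 left its direction and its side of the threshold as they were, 19 lost a call, 5 gained one and 0 reversed. With upper-quartile factors 1 of the 6 genes fell in nurses against newly emerged workers. With only the 2 groups compared in the fit, 0 of the 6 rose in foragers against nurses, and calls over all genes were 111 there, 431 in defenders against nurses and 876 in defenders against foragers. DESeq2 called 888, 1844 and 1306 genes in the same comparisons; it called 1 of the 6, Y-f, higher in defenders against nurses (adjusted p = 0.0282) and 1, TyHyd, lower in defenders against foragers (adjusted p = 0.0304). With the replicate block over 12 libraries, 1466 genes passed in defenders against nurses and 667 in defenders against foragers. Of the 6, 1 was higher in the first (Y-f, adjusted p = 0.0358) and 1 lower in the second (TyHyd). This block includes the nurse libraries, whose numbers did not pair them with the other groups. With the block over the 9 paired libraries, chosen after seeing the data, 1246 genes and 1 of the 6, TyHyd, passed in defenders against foragers (adjusted p = 0.0360). The block changed no other call of the 6 genes. Of called genes, 66.4% were higher in defenders against nurses with the block, and 81.3% in defenders against foragers. Leaving out 1 library gave 1 to 2 of the 6 lower in nurses against newly emerged workers and 0 to 2 higher in foragers against nurses. It gave 176 to 532 calls over all genes in foragers against nurses, 99 to 1428 in defenders against nurses and 0 to 1 in defenders against foragers. Some of these fits held fewer libraries, and the cause of these changes was not tested. Depth limits Y-e3 most, with 26 to 51 counts per newly emerged library.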

Other observations

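Genes of dopamine transport and reception, which act on a product of the TyHyd pathway, differed among themselves in direction. Dat, the dopamine transporter gene, was at 43.9 ± 6.86 CPM in defenders, 51.0 ± 3.93 in foragers and 26.6 ± 2.90 in nurses, against 8.73 ± 2.12 in newly emerged workers (SD, n = 3 each). It rose in each working group against newly emerged workers, by a log2 fold change of 2.33, 2.55 and 1.61, while TyHyd fell. In foragers against nurses both rose, Dat by 0.94 (adjusted p = 0.00855). The dopamine receptor gene Dop3, like TyHyd, fell in each working group against newly emerged workers (log2 fold change -2.41 in defenders, -2.11 in foragers and -1.86 in nurses), and Dop1 and DopR2 passed in none of the 6 comparisons. These genes were chosen after values were seen.

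Among genes with a symbol, a restriction added after seeing the data, the pattern of Y-f over the 12 libraries was most like those of Dat (r = 0.98), Obp16 (an odorant binding protein gene, r = 0.97) and Cat (catalase, r = 0.97). That of TyHyd was most like those of CytC (r = 0.97), the muscle gene TpnCIIIa (r = 0.91) and Arp1 (r = 0.90). TpnCIIIa was at 570 ± 66.8 CPM in defenders, 551 ± 13.1 in foragers, 422 ± 66.0 in nurses and 922 ± 114 in newly emerged workers.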
